A study of Mus musculus with 12 samples.

Results

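Clec2l, Tmem176a and Tmem176b are 3 of the 55401 genes in the deposited tables and 3 of the 12015 that had enough reads to be tested. They were picked by name because they stood higher in TLCP than in Tfh cells in these same libraries, so their difference between the populations is given below as a description, with no test. TLCP is the submitters' short name for CD4 T cells that are LAG-3+ and CXCR5+ with PD-1lo/int staining. The other population is CXCR5+ PD-1hi T follicular helper (Tfh) cells, most of them from germinal centres according to the series' design. Both came from spleens of C57BL/6 mice infected with Leishmania donovani and were taken at day 21 of the infection, after magnetic enrichment of CD4 T cells and a flow cytometry sort. There are 6 libraries of each population, numbered 1 to 6, and the design text gives 6 mice. Every library comes from an infected animal, so no uninfected level can be given, and the 2 sorting gates differ in LAG-3 and PD-1 by construction.

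CLEC2L is a C-type lectin-like membrane protein known mainly from the brain. It belongs to the Clec2 family, several of whose members are ligands of the Klrb1 (NKR-P1) receptors of natural killer cells. TMEM176A and TMEM176B are a pair of multipass proteins related to the MS4A family, which includes CD20. They sit mostly in membranes of intracellular vesicles, where they have been described as cation channels. Their genes are known to be high in dendritic cells, in macrophages and in type 17 lymphocytes, and TMEM176B has been described as a brake on the NLRP3 inflammasome.

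All 3 genes lie on mouse chromosome 6 (GRCm38). Clec2l (ENSMUSG00000079598.4) spans chr6:38663067-38680865 on the plus strand, and GENCODE M21 gives it 1 transcript with 5 exons. Tmem176b (ENSMUSG00000029810.15) spans chr6:48833818-48841496 on the minus strand, 10152953 bases beyond the end of Clec2l. Tmem176a (ENSMUSG00000023367.14) spans chr6:48840919-48847071 on the plus strand. The Tmem176 genes are thus head to head, and their spans overlap by 578 bases on opposite strands, of which 81 are in exons of both.

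The bases before the RefSeq start sites (GRCm38.p6) are shown because the Tmem176 genes share one such stretch and Clec2l has its own, of different composition. Clec2l is given for the 250 bases before its start, chr6:38662819-38663068, plus strand, with each CG dinucleotide in capitals. The Tmem176 sequence is the stretch of 108 bases between the nearest divergent starts of the pair, chr6:48841375-48841482, plus strand, with each GGAA (the core letters of ETS factor motifs) or its reverse complement in capitals.
Clec2l: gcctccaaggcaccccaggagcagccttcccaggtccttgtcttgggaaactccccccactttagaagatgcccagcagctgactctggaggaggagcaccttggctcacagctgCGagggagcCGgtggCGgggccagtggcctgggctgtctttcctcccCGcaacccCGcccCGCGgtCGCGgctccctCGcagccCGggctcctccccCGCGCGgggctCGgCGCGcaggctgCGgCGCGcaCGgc
Tmem176a and Tmem176b: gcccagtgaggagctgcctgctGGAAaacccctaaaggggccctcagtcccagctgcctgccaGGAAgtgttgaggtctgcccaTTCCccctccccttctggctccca

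The Clec2l stretch was 72.4% G or C and held 21 CG dinucleotides. Over 32851 RefSeq promoter windows of the same length the median was 52.4% G or C and 6.0 CG, and 16.3% of them had as many CG as Clec2l or more. The Tmem176 stretch was 63.9% G or C and held 0 CG, where the median window of its length held 3.0 and 19.5% held none. Motifs were searched on both strands by their letters: AGGTCA (a nuclear receptor half-site), GGAA (ETS core), TTCNNNGAA (STAT) and TGTGGT (RUNX core). GGAA occurred 3 times in each stretch, and 93.4% of windows of the Clec2l length and 69.6% of the Tmem176 length hold it at least once. GGAA and the STAT motif can overlap, since TTCNNNGAA can share bases with GGAA or its reverse complement. The other motifs had 0 matches in both stretches. AGGTCA is held by 14.0% of windows of the longer length and 6.34% of the shorter. The shares are 7.02% and 2.79% for TTCNNNGAA and 14.0% and 6.06% for TGTGGT. These are matches of letters only, and no binding was measured.

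The libraries held 6939770 to 12688306 reads assigned to genes. Levels are given as reads per 1000000 assigned reads (CPM) after TMM scaling. Before that scaling, the level that 3 reads make was 0.236 to 0.432 CPM across libraries. In the edgeR fit 3983 of 12015 genes (33.2%) passed an adjusted p of 0.05, 2014 of them (16.8%) higher and 1969 (16.4%) lower in TLCP, and in 8.30% of tested genes all TLCP libraries lay above all Tfh libraries. With library totals alone as the scaling the median log2 difference of all genes shifted from -0.00 to 0.17, and the calls were 3207 higher and 893 lower. Immunoglobulin genes took 0.731% to 4.64% of reads in TLCP and 0.110% to 0.384% in Tfh, and TLCP libraries 4 and 5 stood highest with 3.75% and 4.64%. Values that rest on those libraries are therefore given with and without them. The CD4 T cell markers Cd4, Cd3e, Cd3d, Cd3g, Trac, Cd5, Lck and Lat summed to 3073 to 3756 CPM in TLCP and 4190 to 4706 CPM in Tfh, with Cd4 and Trac the most abundant.

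Clec2l was near the floor in Tfh cells and present in every TLCP library. In TLCP libraries 1 to 6 it stood at 11.0, 7.72, 11.7, 9.40, 10.6 and 13.6 CPM, from 71 to 151 reads each. In Tfh libraries 1 to 6 it stood at 0.354, 0, 0.197, 0.637, 1.24 and 0.558 CPM, from 0 to 10 reads each. The groups did not overlap: the lowest TLCP library was 6.23 times the highest Tfh library. Tfh library 2 had no Clec2l read, which allows a level of up to 0.359 CPM at 3 reads and covers counting error only. The mean was 10.7 ± 2.01 CPM (SD, n = 6) in TLCP against a Tfh mean of 0.498 ± 0.432 CPM (SD, n = 6). The fitted log2 fold change was 4.43 (SE 0.39), or 21.6-fold, which placed the gene at rank 20 of the 12015 tested genes by signed log2 fold change. The authors' deposited table gives 4.49 (SE 0.36) for the same gene.

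Within TLCP, Clec2l was the steadiest of the 3 genes. Its highest TLCP library was 1.77 times its lowest, and its coefficient of variation was 18.8%, where read counting alone would give 9.77%. The Tfh coefficient of variation was 86.8%, with 47.1% from counting. Tfh libraries 1 to 3 held 0 to 0.354 CPM and libraries 4 to 6 held 0.558 to 1.24 CPM, while TLCP libraries 1 to 3 (7.72 to 11.7 CPM) and 4 to 6 (9.40 to 13.6 CPM) overlapped. The fold change moved with this: it was 47.8-fold with replicates 1 to 3 only and 13.8-fold with replicates 4 to 6 only. No label names a batch, so these sets are only the replicate numbers. On the deposited TPM values, as log2(TPM + 1), the difference was 3.59, a scale that understates the change of low genes. Without TLCP libraries 4 and 5 the log2 fold change was 4.47, or 22.2-fold.

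**Figure D1:**
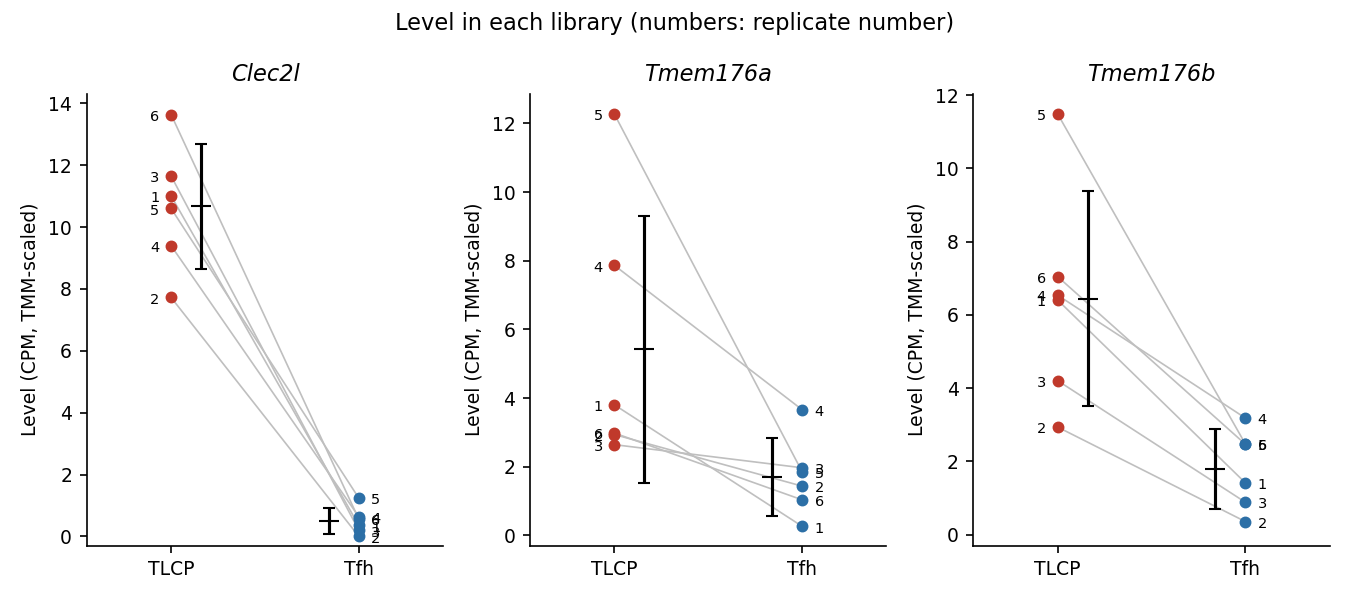
Level of Clec2l, Tmem176a and Tmem176b in each library, in CPM, with TLCP and Tfh side by side; points are libraries marked by replicate number, grey lines join equal numbers, and the black marks are the mean and SD (n = 6). Clec2l does not overlap between the populations (lowest TLCP 7.72, highest Tfh 1.24 CPM), whereas Tmem176a does (lowest TLCP 2.64, highest Tfh 3.66 CPM).

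In TLCP, Tmem176b was lower than Clec2l in mean CPM and more variable. TLCP libraries 1 to 6 held 6.41, 2.94, 4.20, 6.54, 11.5 and 7.04 CPM, and Tfh libraries 1 to 6 held 1.42, 0.359, 0.886, 3.18, 2.48 and 2.47 CPM. Of the 6 TLCP libraries 5 lay above the highest Tfh library, and TLCP library 2 lay below it. The mean was 6.44 ± 2.94 CPM (SD, n = 6) in TLCP against a Tfh mean of 1.80 ± 1.09 CPM (SD, n = 6). The log2 fold change was 1.86 (SE 0.40), or 3.62-fold, at rank 380 of the tested genes. In the authors' deposited table it is 1.87 (SE 0.40). Without TLCP libraries 4 and 5 it was 1.53, or 2.88-fold. Replicates 4 to 6 were higher than 1 to 3 in both populations, at 6.54 to 11.5 against 2.94 to 6.41 CPM in TLCP and 2.47 to 3.18 against 0.359 to 1.42 CPM in Tfh. That split by number was seen in the values and was not tested.

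Tmem176a was carried to a larger extent by 2 libraries. It stood at 3.80, 2.94, 2.64, 7.87, 12.3 and 2.98 CPM in TLCP libraries 1 to 6 and at 0.266, 1.43, 1.97, 3.66, 1.86 and 1.04 CPM in Tfh libraries 1 to 6. TLCP libraries 4 and 5 were the highest of the 12, and only 3 of the 6 TLCP libraries lay above the highest Tfh library. The mean was 5.42 ± 3.88 CPM (SD, n = 6) in TLCP against a Tfh mean of 1.70 ± 1.14 CPM (SD, n = 6), while the medians were 3.39 and 1.65 CPM. The log2 fold change was 1.72 (SE 0.51), or 3.30-fold, at rank 453 of the tested genes, and the authors' deposited table gives 1.72 (SE 0.47). Without TLCP libraries 4 and 5 it was 0.90 (SE 0.47), or 1.87-fold. The same 2 libraries held the most immunoglobulin reads and plasma cell markers, which summed to 10235 and 12031 CPM there, 2190 to 5232 CPM in the other TLCP libraries and 211 to 1274 CPM in Tfh. The part of plasma cell RNA in the Tmem176a level was not tested beyond the value without these libraries. In bulk RNA, fewer cells of a type and less RNA per cell cannot be told apart.

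**Figure D2:**
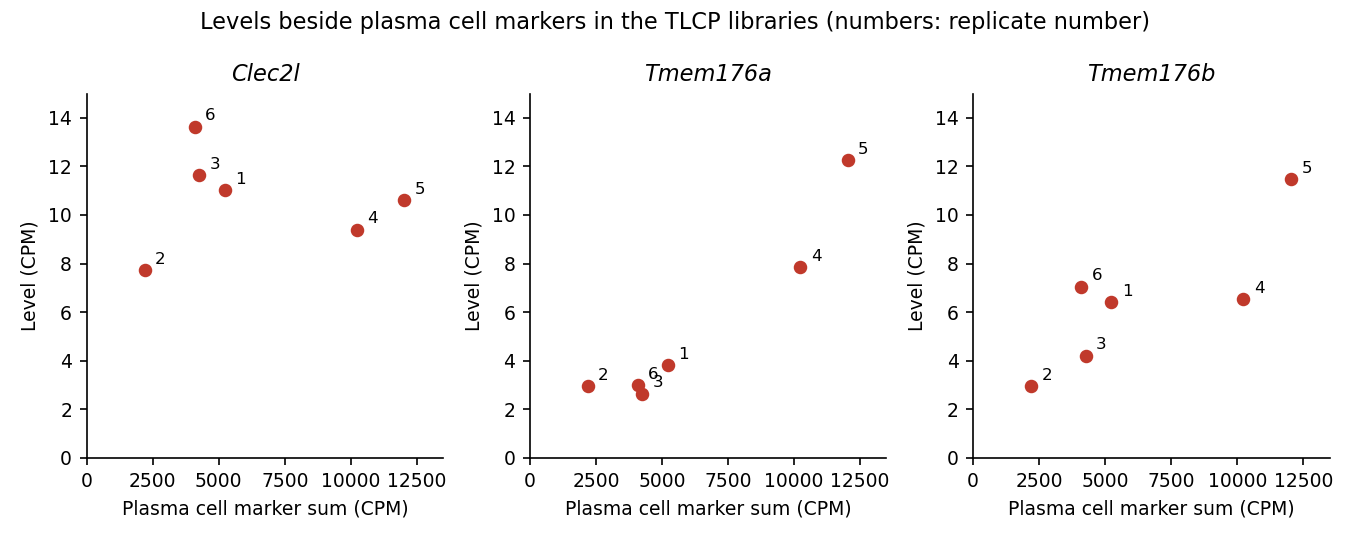
Level of each of the 3 genes (CPM) against the summed level of the plasma cell markers (CPM), each point a TLCP library marked by replicate number. Libraries 4 and 5, at 10235 and 12031 CPM of plasma cell markers, carry the highest Tmem176a levels (7.87 and 12.3 CPM), while their Clec2l levels (9.40 and 10.6 CPM) lie within the range of the others.

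Paired by replicate number, each of the 3 genes was higher in TLCP in 6 of 6 pairs. The log2 differences of the pairs, with a prior count of 2, were 2.90 to 5.25 for Clec2l, 0.99 to 2.47 for Tmem176b and 0.39 to 3.08 for Tmem176a. Clec2l thus had the largest difference of the 3 genes in every pair, but its range overlapped that of Tmem176a. The smallest pair difference was that of Tmem176a.

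Compared per transcript length, as TPM, the order in TLCP was Clec2l, Tmem176b, Tmem176a. Clec2l stood at 18.8 ± 4.66 TPM (SD, n = 6), above 57.8% of tested genes, Tmem176b at 7.22 ± 3.46 TPM (30.8%) and Tmem176a at 3.75 ± 2.71 TPM (17.9%). Clec2l (12.5 to 26.7 TPM) and Tmem176b (3.01 to 12.6 TPM) overlapped only at the edge of their ranges, and Tmem176b overlapped with Tmem176a (1.56 to 8.40 TPM) between 3.01 and 8.40 TPM. In Tfh the order was Tmem176b, Tmem176a, Clec2l, at 1.58 ± 0.871, 0.904 ± 0.550 and 0.670 ± 0.498 TPM (SD, n = 6), and all 3 overlapped in range. In Tfh these levels lay above 10.4%, 5.46% and 3.63% of tested genes. Clec2l was therefore the highest of the 3 in TLCP and the lowest in Tfh by mean TPM. Tmem176a stood below Tmem176b in all TLCP libraries, with a ratio of 0.263 to 0.749 (median 0.507), and above it in 2 of 6 Tfh libraries, with a ratio of 0.117 to 2.49 (median 0.591).

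Tmem176a and Tmem176b could be counted apart in their overlap because counts were taken by strand. The wrong strand held 16 reads in TLCP and 12 in Tfh for Tmem176a, against 322 and 86 on its own strand. For Tmem176b they came to 4 and 1, against 385 and 99. With both strands counted together the log2 fold changes were 1.65 and 1.91 in place of 1.72 and 1.86. Clec2l had 12 opposite-strand reads in TLCP and 1 in Tfh, against 629 and 27 on its own strand.

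Variation between libraries within a population was not used to pick the genes, so it could be tested, as 4 relations of log2 CPM with exact 2-sided permutation tests. Within TLCP, Tmem176a and Tmem176b had Pearson r = 0.76 (exact permutation p = 0.0917, Benjamini-Hochberg adjusted p = 0.367, n = 6) and Spearman rho = 0.77 (exact permutation p = 0.103, adjusted p = 0.411). Without libraries 4 and 5, the farthest from the Tmem176a median, r was 0.50 over 4 libraries. The relation of the pair across TLCP libraries did not pass the test and rests largely on those libraries. Within Tfh the same genes had r = 0.21 (exact permutation p = 0.686, adjusted p = 0.776) and rho = 0.37 (exact permutation p = 0.497, adjusted p = 0.658), and r was -0.19 without libraries 1 and 4. Clec2l, examined in TLCP only, showed no relation past the threshold with either. With Tmem176a in TLCP it had r = -0.15 (exact permutation p = 0.776, adjusted p = 0.776) and rho = -0.26 (exact permutation p = 0.658, adjusted p = 0.658), and r was -0.66 without libraries 2 and 6. With Tmem176b it had r = 0.49 (exact permutation p = 0.304, adjusted p = 0.608) and rho = 0.31 (exact permutation p = 0.564, adjusted p = 0.658), and r was -0.38 without libraries 2 and 6. Replicates 1 to 3 and 4 to 6 hold too few libraries for an r of their own.

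**Figure D3:**
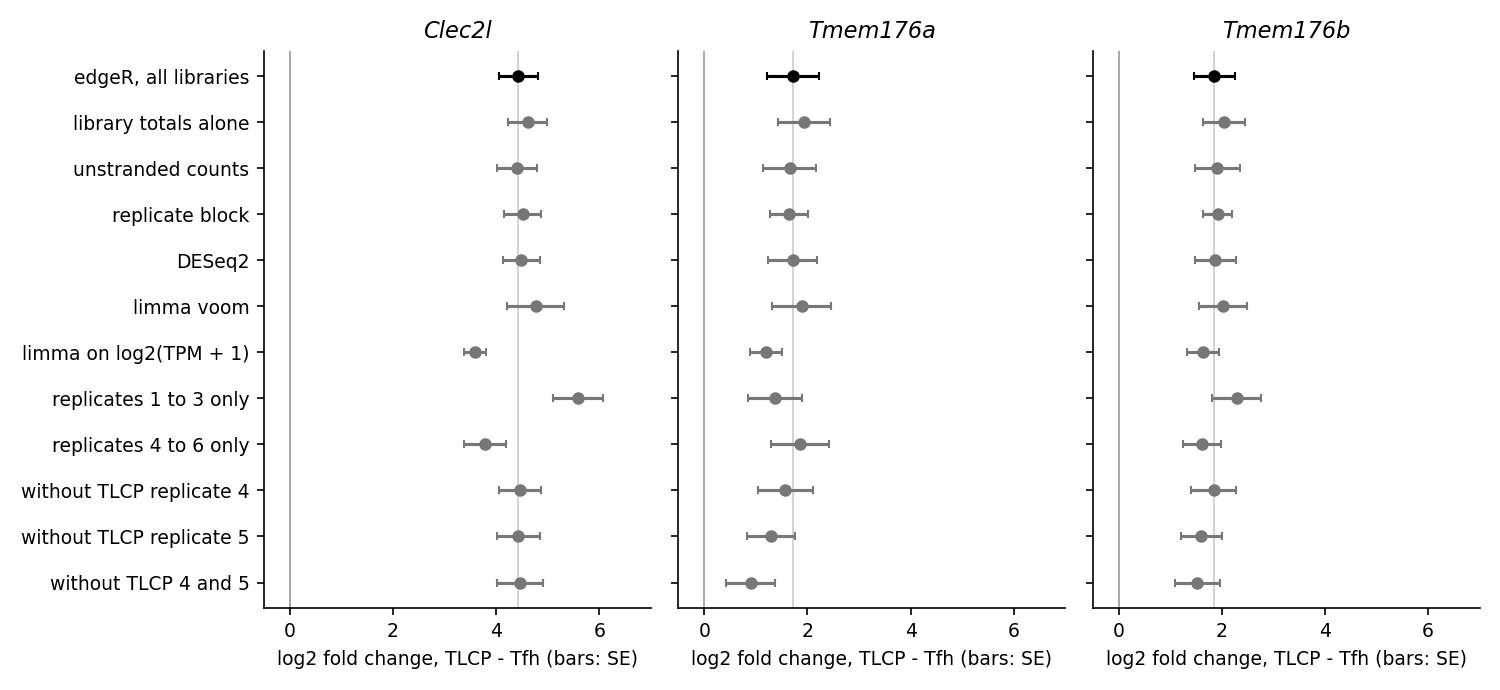
Log2 fold change (TLCP over Tfh) of the 3 genes under 12 processing settings, with the SE of the fit as bars and a line at the value of the edgeR fit over all libraries. Clec2l moved between 3.59 on log2(TPM + 1) and 5.58 with replicates 1 to 3 only, and Tmem176a was lowest, at 0.90, without TLCP libraries 4 and 5.

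The genes around each locus were read from the same fit, within 200 kb of each span. Around Clec2l there were 6 protein-coding neighbours, of which 4 were tested, 3 were higher in TLCP and 0 lower in the edgeR test, beside 16.8% and 16.4% of all tested genes. At an unadjusted p under 0.05 and with DESeq2 the count lower was also 0. Hipk2, a nuclear kinase gene whose span begins 13525 bases from Clec2l, was at 43.7 ± 7.69 CPM in TLCP, beside 27.1 ± 2.37 CPM in the Tfh libraries (SD, n = 6 each), for a log2 difference of 0.69 (edgeR adjusted p = 7.0e-05). Luc7l2, a splicing factor gene, rose by a log2 fold change of 0.39 (edgeR adjusted p = 0.0073). Ubn2 had 0.31 (edgeR adjusted p = 0.040), a call that was lost when any one of TLCP libraries 1, 2, 4 and 5 or Tfh libraries 1, 3, 4, 5 and 6 was left out. Fmc1 had 0.19 (edgeR adjusted p = 0.72). Klrg2, a lectin-like receptor gene 25825 bases from Clec2l, had 0 reads in all libraries. The Clec2l difference was larger than that of any tested neighbour. Clec2l was picked for its difference in these libraries and the neighbours were not, so this order is a description only.

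The Tmem176 pair adjoins the Gimap cluster, which encodes immunity-associated GTPases of lymphocytes. Of 14 neighbours of the pair 10 were tested, with 7 higher in TLCP and 1 lower. Among the 8 Gimap genes 5 were higher and 1 was lower. Over all tested genes the shares were 16.8% and 16.4%. Gimap7 was at 179 ± 23.9 CPM in TLCP, beside 93.3 ± 13.4 CPM in the Tfh libraries (SD, n = 6 each), for a log2 difference of 0.94 (edgeR adjusted p = 8.7e-07). Gimap4 (0.52), Gimap8 (0.46), Gimap5 (0.26) and Gimap3 (0.25) also passed, with Gimap5 lost without Tfh library 3, without TLCP libraries 4 and 5 and with replicates 4 to 6 only (0.20), and Gimap3 lost with replicates 4 to 6 only (0.15). Gimap9 had a log2 fold change of -0.36 (edgeR adjusted p = 7.5e-04), a call lost under library totals alone (-0.20) and on TPM (-0.07). Gimap6 had 0.05 (edgeR adjusted p = 0.60), and Gimap1 had 0.16 (edgeR adjusted p = 0.14), which passed under library totals alone (0.33) and on TPM (0.44). Gm28053, a gene model that overlaps Gimap7, Gimap1 and Gimap5, had 1.68 (edgeR adjusted p = 7.3e-04) and 0.57 on unstranded counts, where it did not pass, so its value is uncertain. On the far side, Gpnmb, a membrane glycoprotein gene of macrophages and dendritic cells, was at 3.55 ± 2.18 CPM in TLCP, beside 1.24 ± 0.346 CPM in the Tfh libraries (SD, n = 6 each), a log2 fold change of 1.50 (edgeR adjusted p = 0.0061). That call was lost with replicates 4 to 6 only (1.47, edgeR adjusted p = 0.099). Aoc1 had 0 reads in TLCP and 8 in Tfh, and Doxl1, Doxl2 and Svs1 had 0 in all libraries.

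**Figure D4:**
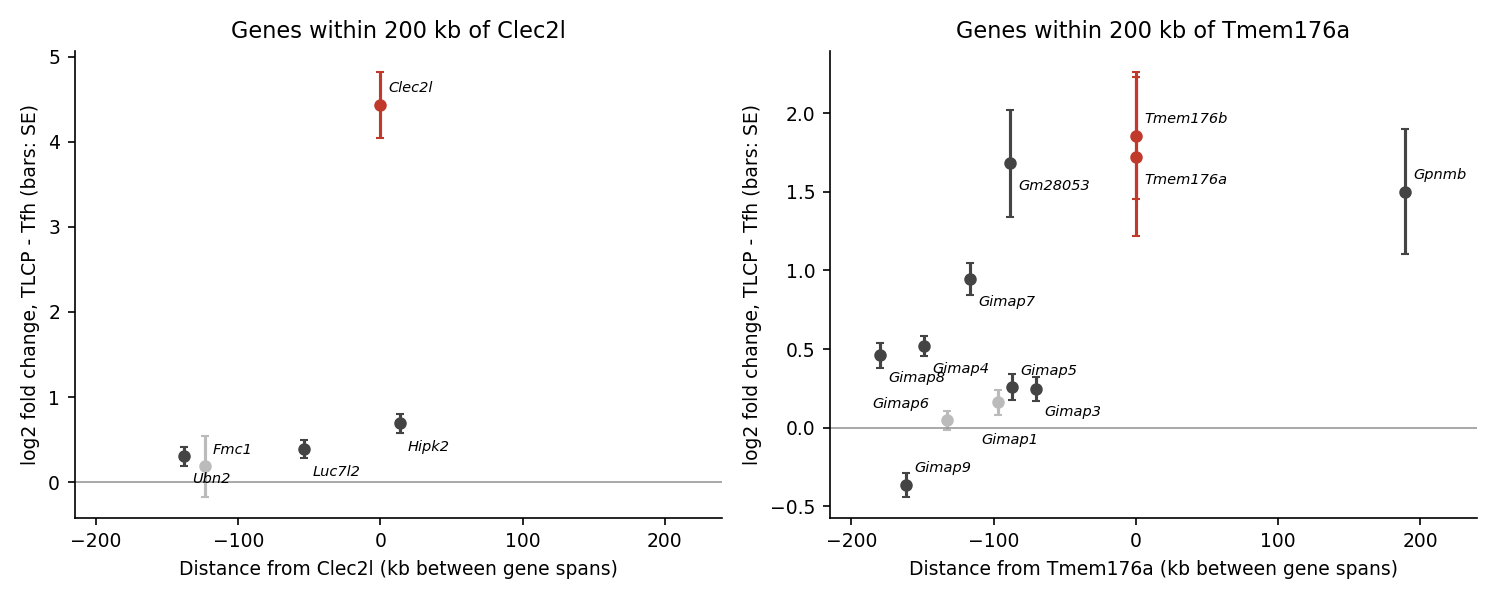
Log2 fold change (TLCP over Tfh, with SE) of tested protein-coding genes against the distance in kb between their spans and that of Clec2l or Tmem176a; dark points passed an edgeR adjusted p of 0.05, pale ones did not, and the 3 members are in red. Clec2l, at 4.43, stands above all 4 of its tested neighbours, of which Hipk2 is the highest at 0.69. The tested Gimap genes lie between -0.36 and 0.94, below Tmem176a at 1.72 and Tmem176b at 1.86. The 3 members were picked for their difference in these libraries, so these orders are a description only.

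The genes whose levels followed each member most closely were taken from 9025 tested genes with a mean of at least 5 CPM, by Pearson r of log2 CPM, as a description. Tmem176a and Tmem176b lay below that mean, so neither could appear among the genes closest to the other or to Clec2l. For Clec2l over all 12 libraries they were Prdm1 (r = 0.985), Aopep (0.985), Kcnk5 (0.983), Selplg (0.981) and Anxa6 (0.980), values that include the difference between populations. Prdm1 encodes the transcription factor BLIMP-1 and is also on the plasma cell marker list. Within the 6 TLCP libraries the closest were Ctsa (0.971), Tsr2, Capg (0.966), Mrps25 and Ctc1, so no gene of the first list was in the second. For Tmem176b over 12 libraries the closest were Ly6c2 (0.967), Atp8b4 (0.964), Ckap4 (0.958), Fxyd5 (0.957) and Mknk2 (0.957). Ly6c2 has a near-identical copy, Ly6c1, and its reads are less certain. After each population's mean was subtracted the closest to Tmem176b were Gapdh (0.962), Zbtb7b (0.959), Rpn1 (0.936), Npc2 (0.933) and Adora2a (0.928). On that measure Clec2l stood at rank 160 for Tmem176b (0.814) and at rank 3491 for Tmem176a (0.096). For Tmem176a over 12 libraries they were As3mt (0.927), Ankrd50 (0.909), Slc7a5 (0.894), Ikzf4 (0.872) and Qtrt2 (0.870), and after subtraction Atg12 (0.891), Slc7a1 (0.877), As3mt (0.863), Dcaf12 (0.859) and Ngdn (0.856). As3mt was the one gene on both Tmem176a lists. All genes of a library share its depth and scaling, and with 9025 candidates high values of r are reached by many genes.

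The relatives of Clec2l went in both directions. Of 11 genes of the Clec2 family and the Klrb1 receptors 5 were tested, with 1 higher, 3 lower and 1 not past the threshold, beside 16.8% and 16.4% of all tested genes. Under library totals alone and on TPM 1 was lower. The list had a median log2 fold change of -0.28, and all tested genes had -0.00. Klrb1c, the receptor known as NK1.1, was at 2.98 to 5.55 CPM in TLCP and 6.85 to 16.5 CPM in Tfh, without overlap, and fell by 1.46 on the log2 scale (SE 0.22, edgeR adjusted p = 3.4e-05). Klrb1f, another receptor of that family, went the other way, with 16.8 ± 2.38 CPM in TLCP and 7.61 ± 2.03 in Tfh (SD, n = 6), a log2 fold change of 1.13 (SE 0.17, edgeR adjusted p = 4.5e-05). Clec2d, the ligand of the Klrb1b inhibitory receptor, was far more abundant, at 212 ± 18.3 and 256 ± 20.4 CPM (SD, n = 6), a log2 fold change of -0.28 (edgeR adjusted p = 0.0039) that did not pass under library totals alone (-0.11) and was 0.0095 on TPM. Clec2i had -0.50 (edgeR adjusted p = 0.018) and Cd69, an early activation antigen of the same family, 0.02 (edgeR adjusted p = 0.93). Clec2g, too low to be tested, had 64 reads in TLCP, at 0.109 to 3.27 CPM, and 0 reads in Tfh. Clec2i, Cd69 and Clec2g, and in the lists below Il23r, Ccr6, Il21, Il17a, Il22, Ms4a1, Ms4a6b, Ms4a6d, Nlrp3, Casp1, Mcoln1, Trpm2, Kcnk6 and Hvcn1, were named after their values were seen. The same holds for Il17f, Il18, Nlrc4, Txnip, Pycard and Casp8.

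Of 16 MS4A family genes, relatives of the Tmem176 pair, 8 were tested, with 5 higher and 1 lower, beside 16.8% and 16.4% of all tested genes, 2 not past the threshold and a median log2 fold change of 0.51. Ms4a2, the beta chain of the high-affinity IgE receptor and a basophil and mast cell marker, was at 6.03 ± 1.97 CPM in TLCP, beside 0.188 ± 0.200 CPM in the Tfh libraries (SD, n = 6 each), for a log2 difference of 5.09 (SE 0.51, edgeR adjusted p = 2.2e-07). Ms4a4b, a T cell member of the family, was at 833 ± 68.6 and 615 ± 90.9 CPM, a log2 fold change of 0.44 (SE 0.086, edgeR adjusted p = 6.3e-04). Ms4a4c was at 56.4 ± 22.3 and 25.4 ± 5.95 CPM, a log2 fold change of 1.15 (SE 0.24, edgeR adjusted p = 0.0027), which did not pass with replicates 4 to 6 only (1.28, edgeR adjusted p = 0.073). The other 2 that rose were Ms4a1, which encodes CD20 and marks B cells (1.90, edgeR adjusted p = 0.0066), and Ms4a6b (0.28, edgeR adjusted p = 0.029). Ms4a6d fell by 0.81 on the log2 scale (edgeR adjusted p = 0.0067). Those that rose thus include markers of B cells and of basophils beside genes of T cells.

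Type 17 genes were listed because the Tmem176 genes are known from type 17 lymphocytes. In this list 8 genes were tested, with 3 higher and 3 lower, beside 16.8% and 16.4% of all tested genes, 2 not past the threshold and a median log2 fold change of 0.06. Ahr, a ligand-activated transcription factor, was at 14.6 ± 3.68 CPM in TLCP, beside 4.59 ± 0.739 CPM in the Tfh libraries (SD, n = 6 each), for a log2 difference of 1.67 (SE 0.19, edgeR adjusted p = 1.1e-06). Il23r (1.78, edgeR adjusted p = 0.0083) and Ccr6 (1.61, edgeR adjusted p = 0.0067) also rose, and Ccr6 is known from B cells as well. Il1r1, the interleukin-1 receptor, was lower, at 4.64 ± 2.04 against 45.5 ± 4.89 CPM, a log2 fold change of -3.30 (SE 0.23, edgeR adjusted p = 7.5e-08). Batf (-0.66, edgeR adjusted p = 5.6e-06) and Il21 (-0.67, edgeR adjusted p = 0.0012) fell too. Il22 had 0 reads in all libraries, and Il17a had 0 in TLCP and 2 in Tfh. Il17f, also too low to be tested, went the other way, with 13 reads in TLCP and 1 in Tfh.

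Inflammasome genes were listed for the described role of TMEM176B. Of 15 genes 13 were tested, with 6 higher and 3 lower, beside 16.8% and 16.4% of all tested genes, 4 not past the threshold and a median log2 fold change of 0.04. P2rx7, the ATP-gated channel upstream of NLRP3, was at 206 ± 19.5 CPM in TLCP and at 351 ± 20.4 in Tfh (SD, n = 6), a log2 fold change of -0.77 (SE 0.068, edgeR adjusted p = 5.0e-08). Nek7, an NLRP3 partner kinase, fell by 0.60 on the log2 scale (SE 0.082, edgeR adjusted p = 1.1e-05), a call lost on TPM. Casp1, the inflammasome protease gene, fell by 0.41 (edgeR adjusted p = 0.0011). Gsdmd, the pore-forming gasdermin D, rose from 35.0 ± 4.14 to 51.2 ± 3.95 CPM, a log2 fold change of 0.54 (SE 0.090, edgeR adjusted p = 9.8e-05). The largest rises were those of Il18 (1.92, edgeR adjusted p = 0.0015) and Nlrc4 (1.26, edgeR adjusted p = 0.0058). Txnip (0.41, edgeR adjusted p = 0.0043), Pycard (0.31, edgeR adjusted p = 0.0067) and Casp8 (0.20, edgeR adjusted p = 0.044) were the others called higher. Nlrp3 was too low to be tested, with 42 reads in TLCP and 8 in Tfh.

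Among 15 endosomal and lysosomal ion channel genes all 15 were tested, with 6 higher, 0 lower and 9 not past the threshold, and a median log2 fold change of 0.26 (0.42 under library totals alone). At an unadjusted p under 0.05 and with DESeq2 the count lower in TLCP was also 0. Mcoln2, an endolysosomal cation channel of the TRPML family, was at 9.50 to 17.4 CPM in TLCP and 0.796 to 2.71 in Tfh, without overlap, a log2 fold change of 2.89 (SE 0.27, edgeR adjusted p = 9.5e-08). Its relative Mcoln3 was at 7.30 ± 0.854 and 2.11 ± 0.567 CPM (SD, n = 6), a log2 fold change of 1.78 (SE 0.23, edgeR adjusted p = 5.3e-06). Mcoln1, the third of that family, had 0.26 (edgeR adjusted p = 0.12). P2rx4, an ATP-gated channel of lysosomes, rose by 0.76 (SE 0.15, edgeR adjusted p = 4.5e-04). Trpm2 (2.97, edgeR adjusted p = 4.7e-04), Kcnk6 (1.05, edgeR adjusted p = 0.0019) and Hvcn1 (0.55, edgeR adjusted p = 0.042) were the others that rose. The share of the list that rose stands beside 16.8% over all tested genes, and no test of the list was made.

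**Figure D5:**
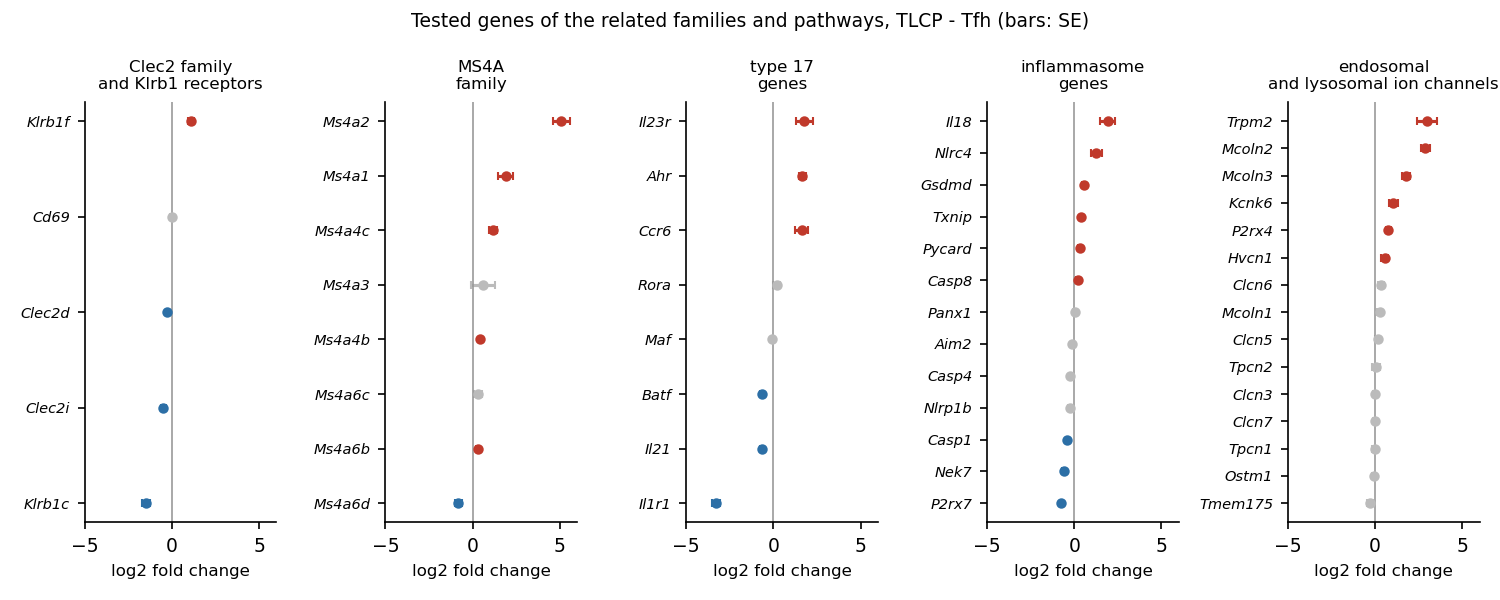
Log2 fold change (TLCP over Tfh) of each tested gene in the 5 gene lists, with its SE as a bar; red points were higher and blue points lower at an edgeR adjusted p of 0.05, and grey ones did not pass. The ion channels have no blue point, and Ms4a2, at 5.09, and Il1r1, at -3.30, are the extremes.

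Markers of other cell types were summed in each library, with the 2 most abundant tested genes of each list given beside the sum. The conventional dendritic cell list, 7 of 12 genes tested, summed to 211 to 608 CPM in TLCP and 52.2 to 175 CPM in Tfh. Its most abundant genes were H2-Aa, an MHC class II chain that B cells also express, at 123 to 499 against 20.7 to 135 CPM, and Ccr7, a chemokine receptor that T cells also express, at 34.7 to 61.6 against 14.5 to 26.4 CPM. Its defining genes were low but not at 0: Xcr1 had 73 reads in TLCP and 10 in Tfh, Clec9a 61 and 3, and Flt3 208 and 18. The plasmacytoid dendritic cell list (7 of 10) summed to 207 to 403 and 116 to 198 CPM. Its most abundant genes went in opposite directions: Irf8 was at 76.0 ± 28.1 CPM in TLCP against 31.6 ± 9.77 in Tfh (SD, n = 6), a log2 fold change of 1.26 (edgeR adjusted p = 0.0033), and Pacsin1 at 47.7 ± 9.35 against 67.5 ± 3.80, or -0.50 (edgeR adjusted p = 0.0011). Siglech, which defines these cells, had 130 reads in TLCP and 1 in Tfh. The macrophage and monocyte list (5 of 15) summed to 138 to 323 and 34.2 to 127 CPM. Ccr2, at 60.9 to 163 against 6.01 to 21.3 CPM, held much of that sum, with a log2 fold change of 2.91 (edgeR adjusted p = 3.7e-05). Lyz2, at 19.7 to 80.7 against 11.4 to 65.6 CPM, did not pass (0.38, edgeR adjusted p = 0.58). Neither did Cd68 (0.08, edgeR adjusted p = 0.84) nor Csf1r (1.56, edgeR adjusted p = 0.058), but Ly6c2 passed (1.48, edgeR adjusted p = 0.020). The genes of the list that were not tested had more reads in TLCP. Adgre1 had 138 reads in TLCP and 24 in Tfh, Fcgr1 51 and 21, Mertk 41 and 4, and Vcam1 285 and 39. C1qa had 74 and 5, C1qb 105 and 10, and C1qc 86 and 15. Cd5l had 97 and 14, Cd14 14 and 7, and Marco 21 and 5. Apart from Ccr2 and Lyz2, the genes of this list were named after their values were seen.

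Plasma cell markers (9 of 10 tested) did not overlap between the populations, at 2190 to 12031 against 211 to 1274 CPM, with Igkc at 1364 to 8288 and 111 to 828 CPM and Jchain at 550 to 3012 and 28.1 to 162 CPM. Basophil and mast cell markers (7 of 12) did not overlap either, at 35.5 to 110 against 4.54 to 14.8 CPM, with Mcpt8 at 7.29 to 31.8 and 0 to 1.12 CPM, Prss34 at 4.35 to 27.3 and 0 to 3.34 CPM, and Tpsb2 at 0 in all libraries. Natural killer, CD8 T and group 1 innate lymphoid markers (6 of 10) summed to 32.4 to 47.4 and 23.3 to 32.3 CPM, with Eomes higher in TLCP (2.10, edgeR adjusted p = 4.1e-06) and Klrb1c lower, as given above. B cell markers (12 of 12) summed to 682 to 2841 CPM in TLCP and 310 to 877 CPM in Tfh, with overlap. Among them Ighd was higher in TLCP (1.93, edgeR adjusted p = 0.0045) and Cd22 did not pass (0.23, edgeR adjusted p = 0.51). The part of these cell types in the Clec2l, Tmem176a and Tmem176b levels was not tested.

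The sums of the remaining lists overlapped or stood lower in TLCP. Erythroid and platelet markers (6 of 12) summed to 47.2 to 139 and 5.26 to 112 CPM, with Hbb-bs (0.37, edgeR adjusted p = 0.67) and Slc4a1 (0.30, edgeR adjusted p = 0.79) not past the threshold and Gp1bb at 0. Neutrophil markers (4 of 10) summed to 5.96 to 54.5 and 0.717 to 55.9 CPM, with Mpo (2.04, edgeR adjusted p = 0.12) and S100a9 (-1.53, edgeR adjusted p = 0.37) not past it. Ly6g, Camp, Ngp and Ltf had 0 reads in TLCP and 2, 30, 282 and 168 in Tfh. The neutrophil sum was 6.11, 0.717 and 1.87 CPM in Tfh libraries 1 to 3 and 44.1, 55.9 and 50.4 CPM in 4 to 6. In TLCP it was 14.9, 9.36 and 15.1 CPM in libraries 1 to 3 and 33.7, 54.5 and 5.96 CPM in 4 to 6. Group 3 innate lymphoid markers (8 of 12) summed to 957 to 1036 CPM in TLCP and 1104 to 1225 CPM in Tfh. Most of those reads were Cd4 (-0.40, edgeR adjusted p = 3.3e-05), and Id2 went the other way (1.06, edgeR adjusted p = 5.9e-06). Neuron markers, listed because Clec2l is known from the brain, summed to 3.30 to 8.41 against 8.05 to 26.0 CPM. That difference lay mainly in Map2, at 4.05 ± 1.52 CPM in TLCP against 11.6 ± 6.69 in Tfh (SD, n = 6), the 1 gene of 10 that was tested. The other neuron markers were near the floor in both populations, in both directions: Stmn2 had 15 reads in TLCP and 0 in Tfh, Gad1 37 and 18, Tubb3 28 and 55, and Rbfox3 0 and 6. They were too low to show a difference at this depth.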

How the data were processed

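Polyadenylated RNA was sequenced from 12 libraries, and groups were taken from the labels. The submitters' processing notes list the GRCm38 assembly with STAR 2.7.1a, DESeq2 1.30.1 and bcl2fastq 2.20. No source used here gives the annotation release. The authors deposited raw read counts per gene and strand, TPM values, and a table of their own comparison with log2 fold changes, p-values and a normalised signal per library. That signal gave whole reads for 100% of values (tolerance 0.01 reads), equal to the stranded counts for all 55401 genes, and the count test on them made 3983 calls. Reads in classes that name no gene (44.9% to 56.4%) stayed out, and that share includes the multimapping reads (16.1% to 24.3%). Opposite-strand reads were 2.83% to 4.19%.

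The stranded counts of all 12 libraries were fitted with edgeR 4.0.16 (R 4.3.3, filterByExpr, TMM scaling, robust quasi-likelihood test, no covariate, Benjamini-Hochberg adjustment over 12015 genes, threshold 0.05). The same procedure was also run on simulated data. Alternatives used DESeq2 1.42.0, limma 3.58.1 (on log2(TPM + 1)), other scalings, filters and libraries. The 3 genes, the gene lists and the markers were chosen with earlier results of these data known. Genes named are the 3 members; the 3 tested genes with the smallest p in each list; the 2 markers with the highest mean CPM in a list and defining markers near 0; tested neighbours within 200 kb; and the 5 genes most alike each member. Others are said to be named after their values were seen. Samples with the same replicate number deviated together (correlations of 0.127 to 0.318 in all 6 pairs). Unlike numbers reached 0.209, and 9 of 12 libraries correlated best with their own number. Equal numbers were treated as pairs for the pair differences and the replicate block, but not in the main fit. The labels do not tie a number to an animal, and p-values measure the spread between these libraries. One gene of a list is not reported here.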

Additional observations from a re-analysis of the deposited data

How the results depend on the processing

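Precision was limited by depth: the 3 genes rest on 27 to 629 reads per population, and none passed a filter of at least 10 CPM in 6 libraries, so that filter gave no value for them. The direction of all 3 genes was higher in TLCP under every other alternative run. With the replicate block the log2 fold changes were 4.51 for Clec2l, 1.65 for Tmem176a and 1.92 for Tmem176b, the calls over all genes were 2292 higher and 2161 lower, and the block ended no call of a named gene. Clec2l moved to 3.59 on log2(TPM + 1) and to 5.58 with replicates 1 to 3 only. Leaving out 1 library at a time gave 4.19 to 4.89 for Clec2l, 1.29 to 2.06 for Tmem176a and 1.60 to 2.06 for Tmem176b, and r of 0.48 to 0.88 between the Tmem176 genes in TLCP. Calls over all genes ranged from 1770 to 2052 higher and 1719 to 1974 lower when 1 library was left out, and were 3207 and 893 with library totals alone, 3180 and 473 on TPM, and 1513 and 1616 without TLCP libraries 4 and 5, an alternative chosen after seeing the data.

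In the Clec2 and Klrb1 list the count higher was 2 with replicates 4 to 6 only and 2 with no filter, and the count lower was 1 with library totals alone and 1 on TPM. In the MS4A list 3 were higher with replicates 4 to 6 only, and 0 lower on TPM, with replicates 4 to 6 only and with the stricter filter. With the stricter filter, which tests fewer genes, 1 of the type 17 list and 3 ion channels were higher. In the inflammasome list 3 were higher with replicates 4 to 6 only and 1 lower on TPM. With 1 library left out, 4 to 6 MS4A genes, 3 to 4 of the type 17 list, 5 to 6 inflammasome genes and 5 to 7 ion channels were higher, and 3 to 4 inflammasome genes lower. Without TLCP libraries 4 and 5 the Clec2 and Klrb1 list had 2 lower and the type 17 list 2 higher. Of the values of single named genes under alternatives, 780 kept their direction and their side of the threshold, 22 lost the call, 2 gained it and 1 turned, Clec2d at 0.0095 on TPM. Where no construction of the alternative shows it, the cause was not tested.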
